A study of Mus musculus with 21 samples.

Results

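The genes of the cytosolic ribosomal proteins were examined through the H3K4me1 regions that lie beside them. Members were regions whose nearest gene is called Rpl or Rps followed by a number, with or without a final letter, and whose distance to that gene's start site is at most 50 kb. Pseudogene names and the Rps6k kinase genes were left out. The rule found 333 of the 186824 regions of the deposited table, near 65 genes, of which 27 are Rps genes (155 regions) and 38 are Rpl genes (178 regions). Regions within 1 kb of the start site were kept apart as promoter regions (27 regions of 26 genes), and the remaining 306 regions, of all 65 genes, are called other regions. Just inside the 1 kb limit lay a region of Rps27l (-958 bp, log2 differences of DKO from its floxed control line of 0.61 and 0.09 in naive and formative cells) and just outside it one of Rps20 (-1023 bp, 0.70 and 0.94). At 50 kb these were Rps4l (-49409 bp, -0.07 and 0.04) and Rpl37a (50304 bp, -0.58 and -1.15). A region carries the name of the closest gene, although it may act on a different one.

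H3K4me1, monomethylation of lysine 4 of histone H3, was measured by CUT&RUN on mouse embryonic stem cells. In this assay an antibody tethers a nuclease that releases the chromatin around its target. The 16 H3K4me1 libraries form 8 groups of 2, from 4 genotypes in 2 states. Naive cells are the state before withdrawal, and formative cells were taken 63 h after LIF and 2i, the factors that hold the naive state, were withdrawn. The genotypes are wild type (WT), MLL3KO_MLL4fl (lacking MLL3, with floxed MLL4, here the floxed line), MLL3KO_MLL4KO (lacking both enzymes, DKO) and MLL3CD_MLL4CD (CD alleles of both enzymes, dCD, read here as catalytically dead). The floxed line and DKO share the loss of MLL3, so DKO was compared with the floxed line, and dCD, which like wild type is labelled R1, with wild type. No parental line is labelled for the floxed line or DKO, and how many clones stand behind a genotype is not given in the sources used here. The label fields disagree on the catalogue number of the antibody, and 1 of the numbers belongs to an antibody against H3K27ac. The mark is called here as labelled. The table has 1 pooled value per group, so no spread between libraries can be had and differences between lines carry no test.

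Ribosomal protein genes encode the proteins of the small subunit (Rps) and the large subunit (Rpl), are active in every growing cell, and are controlled together with cell growth. Their promoters are rich in CpG and are often bound by ETS-family, YY1 and SP1 factors, and transcription tends to start on a C within a run of pyrimidines, the start of the 5′ terminal oligopyrimidine tract through which mTOR and LARP1 adjust translation. H3K4me1 marks enhancers and the flanks of active promoters, where H3K4me3 fills the centre. MLL3 and MLL4 are the main enhancer monomethyltransferases, and other enzymes methylate the same lysine at promoters.

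Depth sets what can be seen. In wild type a level in the table was found to equal log2(1 + c × normalized reads / width squared), with the same c for all regions. The same form and c were assumed for the floxed line, DKO and dCD. With them, levels were turned back into normalized reads. Levels are therefore compared only within a region. Member promoter regions were shallow, with a median of 26.5 reads in naive wild type and between 28.3 and 49.3 in the other groups, against 54.8 to 84.9 over all 10671 promoter regions. A difference is given as log2 of the level, and its counting error is the standard error on that log2 scale that the normalized reads alone would give, a guide that leaves out variation between cultures. At marker loci, averaged over the regions within 50 kb, 4 of 5 naive loci (Tfcp2l1, Esrrb, Klf4, Zfp42, Prdm14) were at least 1.5-fold lower in formative than in naive wild type, with a range of -1.33 to 0.00. Formative loci (Fgf5, Otx2, Pou3f1, Sox3, Dnmt3b) ranged from 0.01 to 1.59, with 3 of 5 at least 1.5-fold higher. Fibroblast loci (Col1a2, Col3a1, Dcn, Fap, Twist1), which could mark feeder cells, ranged from 0.21 to 2.14 in the same comparison. In formative cells they were lower in both mutants, from -0.97 to -0.14 in DKO and from -1.22 to -0.33 in dCD. They are loci and not RNA levels, and their part in the values that follow was not tested. Nor can fewer cells with the mark and less of the mark per cell be told apart. Over all regions of the table the median difference was -0.18 in naive and -0.13 in formative DKO against the floxed line, and -0.29 in dCD against wild type in both states.

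The sequences at the start sites show what kind of promoter these regions adjoin. Each line gives 60 bases before and 15 from the RefSeq start site (GRCm38.p6), 5′ to 3′ on the gene's strand. They are shown for members whose promoter region differed by at least 2-fold in a mutant comparison and for which a sequence was at hand. Capitals mark a run of C followed by at least 4 C or T that begins within 5 bases of the start, and matches on either strand to CCGGAAG (an ETS core) or GGGCGG (an SP1 core).
Rpl31 (chr1:39367791-39367865, + strand): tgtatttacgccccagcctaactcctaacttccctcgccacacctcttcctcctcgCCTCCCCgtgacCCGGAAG
Rpl34 (chr3:130730384-130730458, - strand): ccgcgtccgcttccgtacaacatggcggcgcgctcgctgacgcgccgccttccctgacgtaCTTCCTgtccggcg
Rps9 (chr7:3703981-3704055, + strand): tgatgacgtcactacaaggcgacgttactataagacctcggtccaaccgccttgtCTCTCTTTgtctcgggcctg
Rpl19 (chr11:98026650-98026724, + strand): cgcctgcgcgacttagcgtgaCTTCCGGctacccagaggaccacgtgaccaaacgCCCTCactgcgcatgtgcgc
Rpl37a (chr1:72711200-72711274, + strand): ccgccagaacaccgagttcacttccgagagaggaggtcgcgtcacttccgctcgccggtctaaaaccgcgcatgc
Rps4x (chrX:102189377-102189451, - strand): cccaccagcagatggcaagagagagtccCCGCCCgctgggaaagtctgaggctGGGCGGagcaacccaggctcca
Rpl3l (chr17:24732625-24732699, + strand): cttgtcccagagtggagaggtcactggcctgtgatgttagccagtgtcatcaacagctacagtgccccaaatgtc
Rpl31, Rpl34, Rps9 and Rpl19 begin in or beside a pyrimidine run, while Rpl37a and Rpl3l, the muscle paralog of Rpl3, have neither the run nor a match in the bases shown. Rpl34, Rpl19 and Rpl3l each have another RefSeq start that is not shown. Over the same span there, Rpl34 has the run and both cores, Rpl19 the run and GGGCGG, and Rpl3l none of these. RefSeq windows of 250 bases before to 50 after the start, 300 bases in all, were matched for 48 of the 65 genes (58 windows). The CCGGAAG core was found in 36.2% of them against 8.86% of all 32851 windows of that length, and the run in 36.2% against 18.3%. GGGCGG was found in 51.7% against 35.7%, the YY1 core AAGATGG in 8.62% against 6.34%, and TATAAA in 8.62% against 13.6%, searched on both strands and without regard to overlap between motifs. Of the 22 windows of the 17 genes that also have a promoter region, 36.4% held the ETS core, 40.9% the run and 31.8% GGGCGG, the last below the share of all windows. A match describes these letters and is not a binding site.

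The promoter regions lay mostly on the upstream side of the start site and ended close behind it; regions farther into the genes are described with the other regions. Of the 27 promoter regions, 24 (88.9%) were centred upstream by the table's distance, against 45.4% of all promoter regions. Measured from the GENCODE start of the gene nearest to each region's centre, their median edges were at -1009 and +155 bp. Those of the 10445 promoter regions with such a start were at -1298 and +1425 bp. In 23 member regions that nearest start was covered, and 4 lay wholly upstream of it. Those of Rpl5, Rpl31, Rpl17 and Rps27a ended 139, 91, 88 and 23 bp before it. Another Rpl17 region (chr18:74997929-74999293) overlaps the gene's span farther upstream, so the Rpl17 promoter region lies within that span. None lay wholly downstream of the nearest start. Only 4 of 27 reached more than 500 bp past that start, against 8252 of 10445. These 4 were both regions of Rpl3l, with edges at +1853 and +1774 bp, and those of Rpl39l (+949 bp), a paralog known from testis, and Rpl21 (+603 bp). The member regions were also narrower, with a median of 1306 bp against 2461 bp, and denser in CpG, with a median of 3.03 per 100 bp against 2.31.

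**Figure D1:**
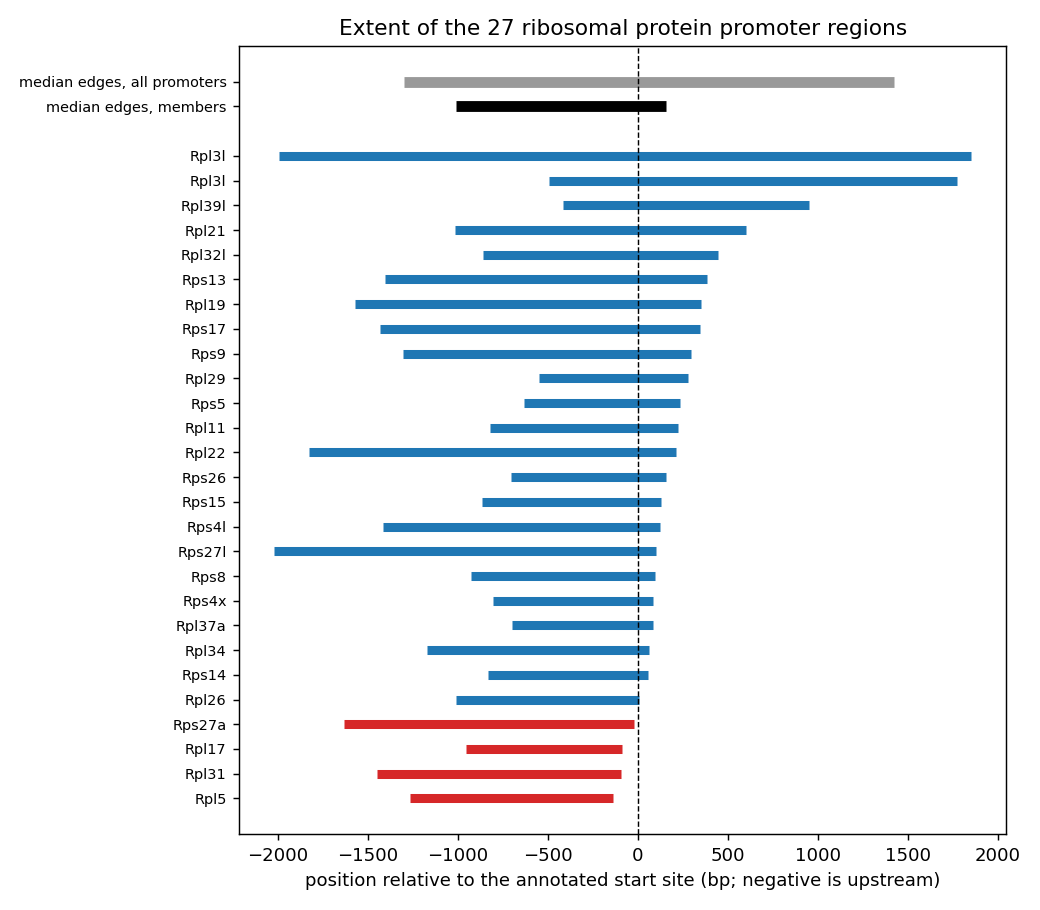
Extent of the 27 member promoter regions relative to the nearest annotated start site (x axis, bp, negative is upstream). Each region is 1 bar, with red for those that end before that start. The black and grey bars join the median edges of members and of all promoter regions. Most bars end within 500 bp behind the start, whereas the median downstream edge of all promoter regions lies at +1425 bp.

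The share of ribosomal protein genes with a region was close to that of all genes. Of 77 protein-coding RefSeq genes that the name rule takes, 64 (83.1%) had a region within 50 kb, against 81.3% of all 21883 genes, and 25 (32.5%) a promoter region, against 39.1%. Genes without any included Rpl3, Rpl4 and Rps2. A region named after any gene covered the start of 45 of the 77 (58.4%), against 68.1% of 20478 genes. Several starts therefore lie under a region that carries a neighbour's name: that of Rpl7a, in the surfeit cluster, under Surf6, that of Rps18 under Vps52, and that of Rpl12 under Lrsam1.

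In naive cells without MLL3 and MLL4, H3K4me1 at these promoters was on the whole not lower in the normalized levels. Such levels are relative within a group, so a higher value does not show a larger absolute amount of the mark. The absolute amount was not tested. The median difference of naive DKO from the floxed line was 0.39 over the 27 members, close to 0.38 over all promoter regions. It was above 0 in 21 of 27, with 2 regions at least 2-fold higher (4.45% of all promoter regions were) and 2 at least 2-fold lower (2.85%). In formative cells the median was 0.60 against 0.40, with 26 of 27 above 0, 1 at least 2-fold higher (7.34%) and none lower (3.25%). The 15 large-subunit regions stood at 0.75 and the 12 small-subunit regions at 0.33 in this comparison, and at 0.43 and 0.36 in naive DKO.

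The line with CD alleles gave medians of the same sign. In naive dCD the median difference from wild type was 0.53 against 0.41 for all promoter regions, with 24 of 27 above 0, 2 at least 2-fold higher (5.11%) and none lower (2.25%). In formative dCD it was 0.63 against 0.47, and all 27 were above 0, with 5 at least 2-fold higher (8.94%) and none lower (3.64%). The order of the subunits was the other way round in dCD, where the large subunit had 0.29 and the small 0.60 in the naive, and 0.52 and 0.66 in the formative state. Each subunit median rests on few, shallow regions, and the order was not tested in DKO or dCD. The large-subunit regions include both of Rpl3l and those of Rpl32l and Rpl39l. Members are dense in CpG, and 12 of them lie among the 2668 promoter regions densest in CpG (above 3.29 per 100 bp). The median of these 12 was 0.41 in naive and 0.39 in formative dCD, below the 0.63 and 0.72 of the 2668. In DKO it was 0.60 and 0.75, where the 2668 had 0.53 and 0.58. Another 10 members lie among the 2668 regions next in CpG density. They had 0.70 and 0.75 in naive and formative dCD, above the 0.53 and 0.60 of those regions. In DKO they had 0.32 and 0.53 against 0.45 and 0.50. The remaining 5, among the 2667 regions next below, had 0.07 and 0.52 in dCD and -0.52 and 0.51 in DKO. Those 2667 had 0.30 and 0.35 in either mutant. Both mutants lay above both control lines in 16 of the 27 regions in naive cells, or 59.3%, against 62% of all promoter regions. In formative cells they did so in 23 of 27, or 85.2%, against 65.5%. The 4 exceptions were Rps15, Rps4x, Rpl39l and the start-site region of Rpl3l. In none of the 27 did both mutants lie below both controls in formative cells (13.5% of all). In naive cells they did so in 2, or 7.41%, against 11.9% of all: Rpl32l and the start-site region of Rpl3l. The shares of all promoter regions take in the 2668 regions poorest in CpG, among which none of the 27 lies. Of those 2668, 1150 were above 0 in formative DKO and 1033 in formative dCD. Among the 2668 densest, 2550 and 2627 were. The part of CpG density in these shares was not tested. The sets of lines differ in parental label, so the order of the 4 lines is a description. Fully upstream regions do not stand apart here, since Rpl31, Rpl5, Rpl17 and Rps27a all belong to the 23.

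**Figure D2:**
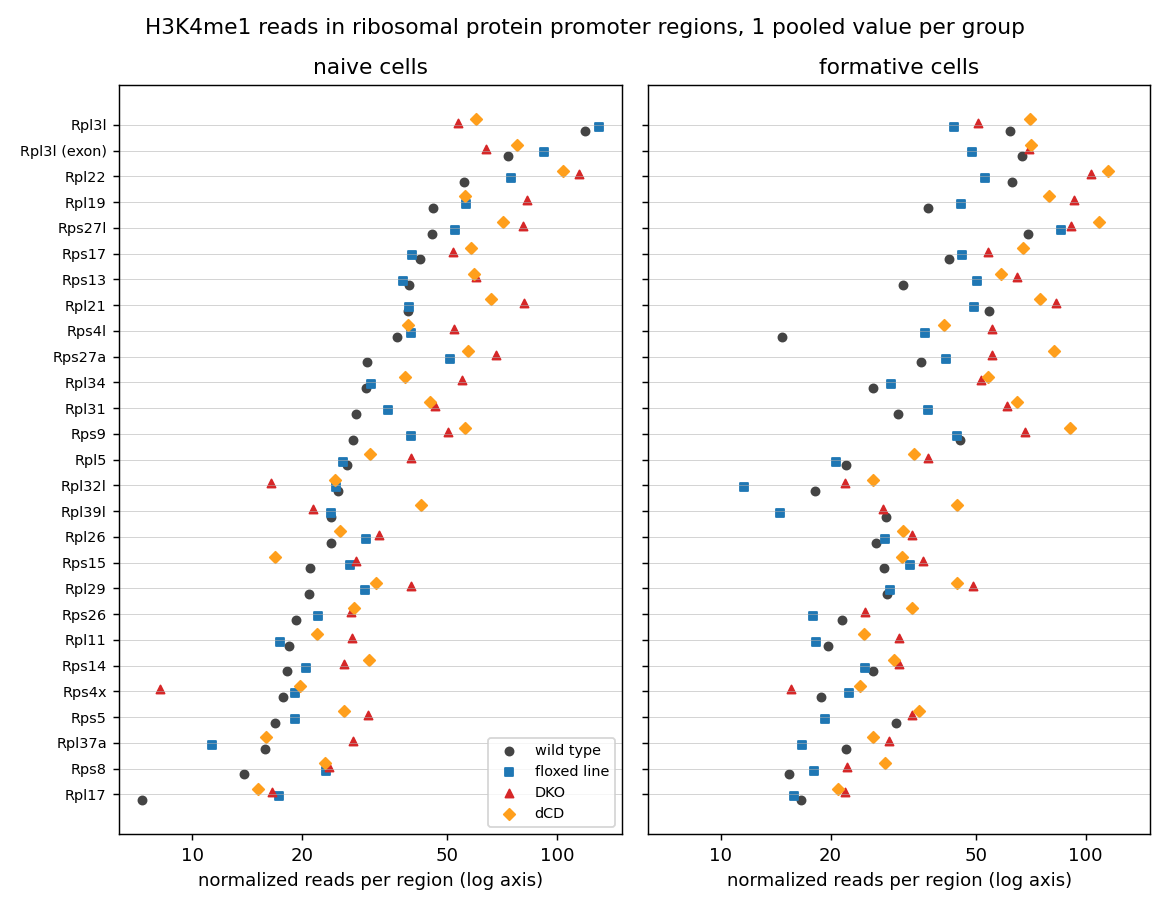
Normalized H3K4me1 reads (x axis, log scale) in each member promoter region in naive and formative cells, with 1 pooled point per line. In most rows the DKO and dCD points lie to the right of the wild-type and floxed points, while the start-site region of Rpl3l in naive cells shows the opposite order.

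The named promoters follow, with normalized reads in the order wild type, floxed, DKO and dCD. Rpl19, a large-subunit protein that reaches across to the small subunit, had 45.6, 56.4, 82.7 and 56.0 reads in the naive and 37.0, 45.5, 92.9 and 79.2 in the formative state. The formative mutants stand well apart from the formative controls here, by 1.02 in DKO (counting error 0.26) and 1.08 in dCD (0.29). Rpl31, near the polypeptide exit, had 28.1, 34.3, 46.3 and 44.7 reads in naive and 30.7, 37.0, 61.0 and 64.9 in formative cells. Both mutants exceeded both controls in each state, with differences of 0.71 in formative DKO and 1.07 in formative dCD. Rpl34 had 30.0, 30.9, 54.8 and 38.4 reads in the naive and 26.1, 29.3, 51.8 and 54.0 in the formative state, so the DKO difference was 0.82 in both states. Rpl22, an RNA-binding protein with a part in T-cell development, was the deepest of the canonical members. It had 55.5, 74.6, 115.1 and 104.0 reads in the naive and 62.7, 52.8, 103.5 and 115.4 in the formative state. Its differences ran from 0.62 in naive DKO to 0.96 in formative DKO.

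Rpl5 and Rpl11 form the 5S particle with 5S rRNA, and free copies of them restrain MDM2. Rpl5 had 26.5, 25.9, 39.7 and 30.6 reads in the naive and 22.1, 20.6, 36.9 and 33.8 in the formative state, and its DKO differences were 0.61 and 0.83. Rpl11 had 18.4, 17.3, 27.4 and 21.9 reads in the naive and 19.7, 18.2, 30.9 and 24.8 in the formative state, with DKO differences of 0.66 and 0.75. Both genes thus showed the same order of lines, with counting errors of 0.36 to 0.44 in DKO. Rpl21 had 39.1, 39.3, 81.4 and 65.7 reads in naive cells and was 1.04 higher in naive DKO (counting error 0.28). Rpl37a, a zinc-finger protein of the large subunit, was 1.28 higher there, but on 11.3 and 27.6 reads, with a counting error of 0.51.

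Among small-subunit genes, Rps9, which lines the mRNA entry channel, had 27.6, 39.7, 50.1 and 55.8 reads in the naive and 45.2, 44.5, 68.4 and 90.8 in the formative state. Its difference in dCD was 1.00 in both states, and in DKO 0.33 and 0.61. Rps27a, made as a fusion with ubiquitin, had 30.1, 50.8, 67.8 and 56.9 reads in the naive and 35.4, 41.5, 55.2 and 81.7 in the formative state. Here the floxed line was already 0.75 above wild type in naive cells, and DKO was 0.41 above the floxed line in both states. Rps4x, encoded on the X chromosome, went the other way in DKO, with 17.7, 19.1, 8.2 and 19.8 reads in naive cells and a difference of -1.21 (counting error 0.60). In formative cells it had 18.8, 22.4, 15.6 and 24.0 reads. The median over all regions of chromosome X in naive DKO against the floxed line was -0.46, and in formative DKO it was -0.58. In dCD against wild type it was -0.39 and -0.68, while Rps4x was at 0.16 and 0.35. The part of the chromosome in the Rps4x value was not tested.

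Most regions below 0 in naive DKO belonged to genes whose names end in l, several of them paralogs with their own tissue pattern. The start-site region of Rpl3l (chr17:24730693-24734538) had 119.4, 130.4, 53.6 and 60.1 reads in the naive and 62, 43.5, 50.9 and 70.5 in the formative state. Naive controls were high and every other group was low, a difference of -1.24 in naive DKO (counting error 0.23) and -0.96 in naive dCD, against 0.21 and 0.18 in formative cells. A further region, annotated to an exon and lying over another start of the gene, had 73.5, 91.9, 63.7 and 77.5 reads in naive cells and showed -0.52 in DKO and 0.07 in dCD. Rpl32l was -0.58 in naive DKO and Rpl39l -0.16, so that 4 of the 6 regions below 0 in that comparison were of this kind, the others being Rps4x and Rpl17. Rps27l and Rps4l were above 0 there, at 0.61 and 0.39. Rps4l, which RefSeq lists as a transcribed pseudogene, had 14.7 reads in formative wild type and 36.2, 55.2 and 40.9 in the other formative groups. Its difference of 1.44 in formative dCD rests on that 1 low value. Without the 6 genes whose names end in l, a choice made after these values were seen, the median was 0.42 in naive DKO and 0.61 in formative DKO.

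**Figure D3:**
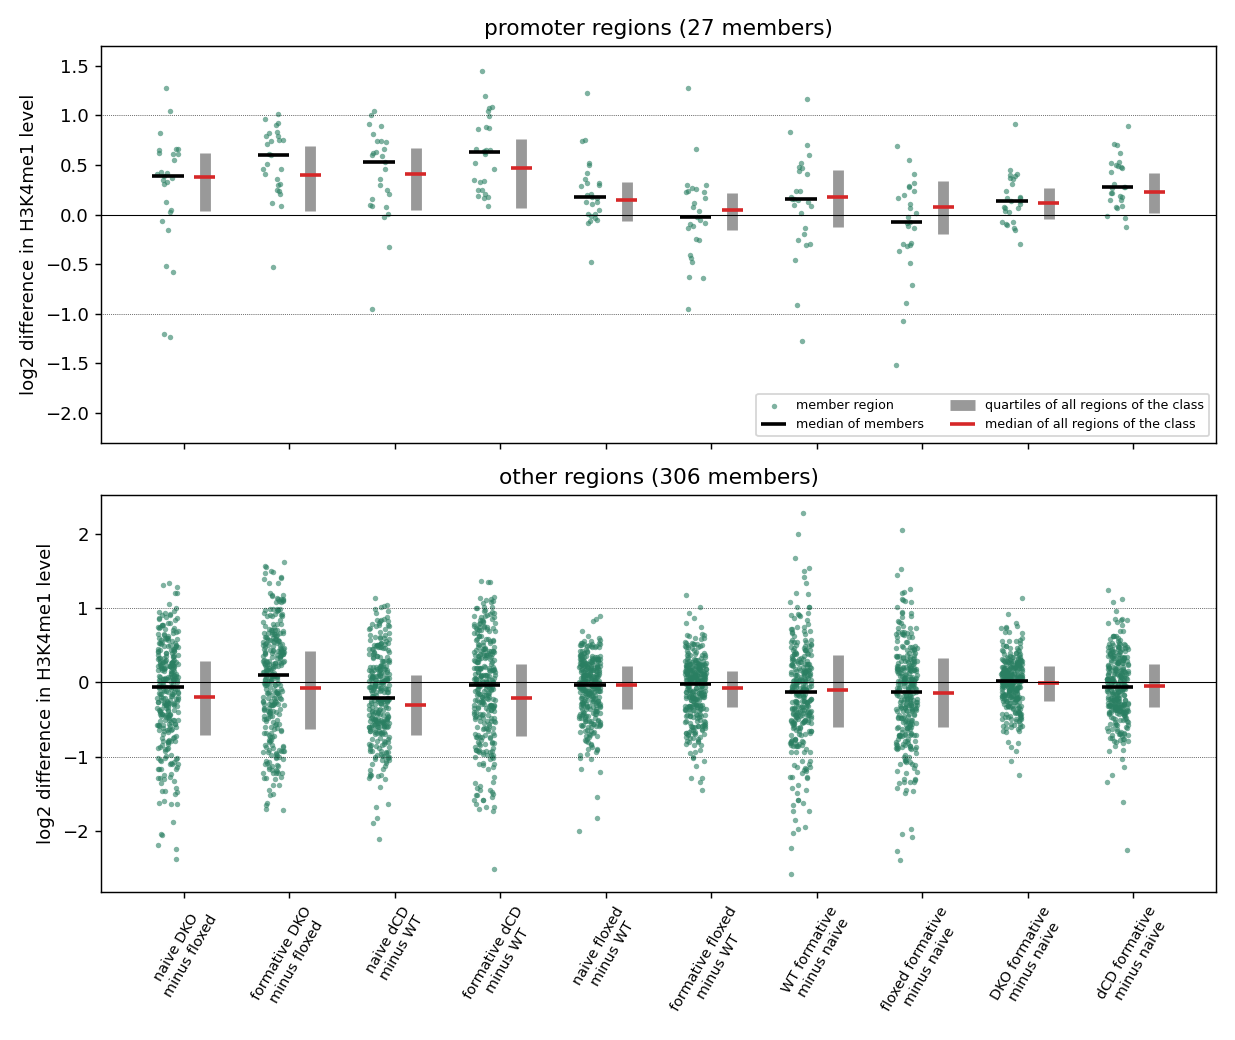
Log2 differences in H3K4me1 level (y axis) of the 27 promoter and 306 other member regions in 10 comparisons (x axis), 1 point per region, with the members' median in black and, for all regions of the same class, the median in red and the quartiles in grey. Promoter points lie mostly above 0 in the 4 mutant comparisons, and those of the other regions spread to both sides.

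The other regions differed by whether they overlie the gene itself and by distance. Over all 306 the median was -0.07 in naive DKO (all other regions -0.20) and 0.09 in formative DKO (-0.08), and -0.21 in naive dCD (-0.30) and -0.04 in formative dCD (-0.22). In naive DKO 6 were at least 2-fold higher (3.77% of all other regions) and 39 lower (14.4%), and in formative DKO 24 were higher (6.67%) and 34 lower (13.2%). In naive dCD 4 were higher (1.02%) and 26 lower (12.4%), and in formative dCD 13 were higher (2.48%) and 31 lower (15.3%). The lower regions make up 12.7% and 11.1% of the members in naive and formative DKO, and 8.5% and 10.1% in naive and formative dCD, each less than the share of all other regions. The sign of these medians depends on the scaling. With each group centred on its all-region median they were 0.14 and 0.30 in naive and formative DKO and 0.15 and 0.36 in naive and formative dCD.

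Of the 306, 56 regions of 43 genes overlapped the GENCODE span of the gene they are named after, 135 overlapped another gene only, and 115 no gene. Among the 56, 47 were centred 1 to 5 kb from the start, on either side of it. An overlap of any length counted. Some of the 47 were centred upstream, such as a region of Rps14 (-4802 bp) and that of Rpl14 (-1836 bp). Over these 47 regions the median difference was 0.33 in naive DKO, 0.58 in formative DKO, 0.51 in naive dCD and 0.56 in formative dCD. Over all 15000 regions placed in this way over their own gene it was 0.17, 0.29, 0.11 and 0.24. At least 2-fold higher in formative DKO were 13 of the 47 (12.5% of the 15000) and none was lower (5.44%). In formative dCD 7 were higher (7.11%), and in naive DKO and naive dCD 2 each (3.89% and 2.02%). Both mutants lay above both controls in both states in 31 of the 47, or 66%, against 33.8% of the 15000. The members had fewer CpG, a median of 1.27 per 100 bp against 1.48. They were wider, with a median of 3366 against 2910.5 bp, and had more reads in naive wild type, a median of 92.0 against 67.1. The 48 member regions at the same distance outside their gene had medians of -0.16, 0.12, -0.22 and 0.05, and all 7877 such regions -0.11, -0.14, -0.24 and -0.17, so in formative cells the members' medians were the higher ones there too. The 9 member regions over their own gene at 5 to 50 kb had 0.03, -0.28, 0.03 and -0.52, and all 41608 such regions -0.28, -0.04, -0.36 and -0.24. No test of these differences was possible with pooled values.

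**Figure D4:**
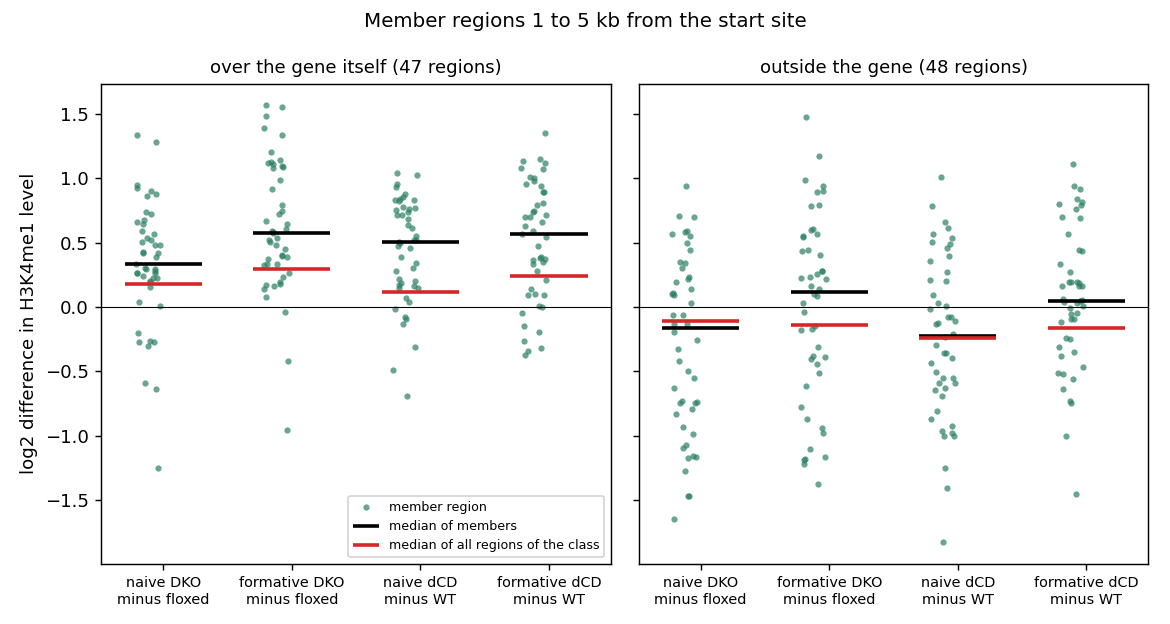
Log2 differences in H3K4me1 level (y axis) in the 4 mutant comparisons (x axis) for member regions 1 to 5 kb from the start, over the gene itself (left, 47 regions) and outside it (right, 48 regions), with the members' median in black and that of all such regions in red. On the left the black lines lie above the red lines and above 0, and on the right the points fall on both sides of 0.

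Single genes show this pattern, among them Rpl5, Rpl31 and Rpl22, whose reads are compared only within a region. Downstream of the Rpl5 start (chr5:107902293-107908335) there were 162.6, 164.8, 314.3 and 233.9 reads in the naive and 81.7, 97.6, 300.3 and 163.9 in the formative state. DKO kept its level between states while wild type and the floxed line were lower in the formative state, and the difference was 0.90 in naive and 1.55 in formative DKO, with a counting error of 0.17 in the latter. This region also overlaps Fam69a and small RNA genes. Inside Rpl31 (chr1:39369328-39371517, shared with Tbc1d8) there were 57.5, 74.9, 119.0 and 95.1 reads in the naive and 34.9, 40.6, 122.2 and 77.8 in the formative state, a difference of 1.57 in formative DKO. Inside Rpl22 (chr4:152327473-152328562) there were 26.8, 23.7, 58.0 and 48.8 reads in the naive and 27, 23.5, 66.0 and 58.9 in the formative state. In both states the mutants were above the controls, by 1.28 and 1.48 in DKO.

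Rps19, the gene most often mutated in Diamond-Blackfan anaemia, had regions with differences in both directions. Inside the gene (chr7:24885823-24888965) reads were 64.2, 80.1, 147.4 and 124.1 in the naive and 56.7, 68.1, 148.0 and 122.0 in the formative state. The mutants were higher in both states, by 0.86 and 1.10 in DKO and 0.93 and 1.08 in dCD. A wide region centred 6.5 kb upstream (chr7:24871481-24884694) overlaps both the span of Rps19 and Dmrtc2. It had 365.9, 394.9, 215.6 and 249.6 reads in the naive and 427.3, 482.4, 223.1 and 288.2 in the formative state. There the mutants were lower, by 0.78 and 1.00 in DKO. Rps6, the target of S6 kinase, has no promoter region, and over its gene (chr4:86850678-86856307) reads were 150.6, 140.2, 169.6 and 167.6 in the naive and 123.0, 98.9, 175.9 and 131.6 in the formative state. Its DKO differences were 0.26 and 0.79. Rpl38, which affects translation of Hox mRNAs, had no region over the gene, and at 2.3 kb upstream it had 40.9, 49.4, 17.4 and 20.4 reads in the naive and 51.5, 47.3, 19.9 and 40.3 in the formative state. Losses in the mutants of this kind were largest at Rpl32l in an intron of Map7 (-2.38 in naive DKO, on 7 against 38 reads) and at Rps13 in an intron of Pik3c2a (-2.25, on 15 against 74.1 reads).

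The floxed line differed little from wild type. The median over the 27 promoters was 0.17 in naive and -0.02 in formative cells, against 0.14 and 0.05 over all promoter regions, and over the 306 other regions it was -0.04 and -0.02. In naive cells 1 promoter region, that of Rpl17, was at least 2-fold higher (0.534%) and none was lower (1.27%), at 7.3 reads in wild type. In formative cells Rps4l alone was higher (0.216%) and none was lower (1.27%). Of the other regions none was at least 2-fold higher (0.627%) and 7 were lower (3.86%) in naive cells, and 2 were higher (0.519%) and 8 lower (2.96%) in formative cells.

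Across the naive to formative transition, the authors' deposited table gives a test for wild type, at an FDR under 0.05. Of the 27 promoter regions 1 passed (9.41% of all promoter regions did, 6.77% rising and 2.64% falling), the start-site region of Rpl3l, with a deposited log2 fold of -1.03 and an FDR of 0.00393. Only 11 of the 27 had 32 or more reads in the higher wild-type group, against 8735 of all 10671 promoter regions. The part of this depth in the share that passed was not tested. The median over the 27 was 0.15 in wild type, -0.08 in the floxed line, 0.13 in DKO and 0.28 in dCD, against 0.17, 0.08, 0.12 and 0.23 over all promoter regions. Rps4l had the lowest promoter value in wild type, -1.28, with an FDR of 0.494 in the authors' deposited table. At least 2-fold higher in wild type was 1 promoter region (4.55%; Rpl17, from 7.3 reads) and 1 was lower (2.28%; Rps4l). In the floxed line none was higher (3.08%) and 2 were lower (2.2%), and in DKO and dCD none passed in either direction. Rps9 and Rps27l, a paralog known as a p53 target, were 0.70 and 0.60 higher without passing.

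Of the 306 other regions 38 passed that FDR in the authors' deposited table, or 12.4%, against 19.2% of all other regions. H3K4me1 rose in 11 (7.54% of all did so) and fell in 27 (11.7%). Of the 56 that overlie the gene they are named after, 4 passed (7.14%, against 20.4% of all 56608 such regions), all falling: those of Rpl5, Rps7, Rpl36 and Rpl32. Of those that overlie another gene only, 24 of 135 passed (17.8% against 19.8%), and of those that overlie no gene, 10 of 115 (8.7% against 17.2%). The leading one, 18.5 kb upstream of Rpl31 in an intron of the circadian factor gene Npas2 (chr1:39347458-39351333), had 126.0, 125.2, 67.2 and 61.8 reads in the naive and 28.5, 42.4, 52.4 and 43.3 in the formative state. Its deposited log2 fold in wild type was -2.19 with an FDR of 7.51e-09. The naive controls were the highest groups, the naive mutants were intermediate, and formative wild type was the lowest.

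Of the 11 regions named after Rps6, 4 fell in the authors' deposited table, and these lie in Dennd4c, a Rab exchange factor gene. The first (chr4:86829143-86832434) had 113.7, 98.3, 22.2 and 71.0 reads in the naive and 32.7, 21.5, 34.8 and 43 in the formative state, with a deposited log2 fold of -1.79 and an FDR of 3.11e-06. DKO was low in both states. Gains were led by a region 13.2 kb upstream of Rps4l in Tmtc1, from 13.5 to 44.2 reads in wild type, with a deposited log2 fold of 1.82 and an FDR of 0.00333. Near Rpl5, a region 12.0 kb upstream rose from 38.5 to 83.0 reads in wild type (deposited log2 fold 1.14, FDR 0.00775) and went from 48.9 to 115.2 in the floxed line, while DKO had 32.7 and 35.9 and dCD 29.4 and 31.7. The region over the gene fell (deposited log2 fold -1.02, FDR 0.00201), so both directions occurred at 1 locus.

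In the mutants the other regions moved less between states. In wild type 13 of 306 were at least 2-fold higher (8.04% of all other regions) and 31 lower (12.1%), and in the floxed line 11 (7.14%) and 29 (11.3%). In DKO 1 was higher (0.778%) and 2 lower (1.02%), and in dCD 3 (1.16%) and 6 (2.21%). As shares of the 306, 4.25% were higher and 10.1% lower in wild type, 3.59% and 9.48% in the floxed line, 0.327% and 0.654% in DKO, and 0.98% and 1.96% in dCD. Each of these shares is below that of all other regions.

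The authors' deposited table also carries log2 folds of H3K27ac, a mark of active promoters and enhancers, and of RNA, both from samples outside this series and for wild type and DKO only. H3K27ac at the 27 promoters had a median deposited fold of 0.32 in naive DKO against wild type, where all promoter regions had 0.50, and 0.72 in formative DKO, where all had 0.46. At least 2-fold higher were 4 in naive (32.4% of all) and 12 in formative cells (32.9%), and 0 (12.2%) and 3 (14.7%) were lower. The highest in formative DKO were Rps9 (2.66), Rps13 (2.58), Rps4l (2.05) and Rpl19 (2.02), and the lowest Rpl39l (-1.93). H3K4me1 in DKO against wild type had promoter medians of 0.60 in the naive and 0.40 in the formative state, where all promoter regions had 0.50 and 0.43. At least 2-fold higher were 4 promoters (10.4%) in the naive and 3 (10.4%) in the formative state, and 2 (2.58%) and 0 (4.05%) were lower. Of the other regions 5 (1.88%) and 25 (4.84%) were higher and 34 (14.5%) and 36 (15.8%) lower. Between states in wild type H3K27ac had a median of -0.38 against 0.11 for all, with 2 at least 2-fold higher (26.3%) and 7 lower (19.2%).

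The RNA of these genes stayed within 1.5-fold more often than that of all genes, by an amount that depended on the comparison. The authors' deposited table had a value for 53 of the 65 genes, and 81.1% of them lay within 1.5-fold between states in wild type, against 52.7% of all 10885 genes. The shares were 81.1% against 57.6% between states in DKO, 66.0% against 60.4% in naive DKO against wild type, and 81.1% against 71.2% in formative DKO against wild type. The median deposited fold was -0.14 in wild type and 0.07 in DKO between states (all genes 0.16 and 0.21), and -0.24 in naive and 0.00 in formative DKO against wild type (0.04 and 0.08). In naive DKO 2 were at least 2-fold higher (9.62%) and 6 lower (11.7%). The lowest were the testis-type paralogs Rpl10l (-4.83) and Rpl39l (-4.24), followed by Rpl3l (-1.67), Rpl10a (-1.38), Rpl36 (-1.22) and Rps4x (-1.04), and the highest were Rpl30 (2.92) and Rpl17 (1.82). In formative DKO 4 were higher (6.99%), Rpl30 (3.82), Rps4x (1.5), Rps16 (1.40) and Rpl17 (1.16), and 1 was lower (5.65%), Rpl39l (-1.29). Between states in DKO 6 were at least 2-fold higher (20%), led by Rps4x (2.11) and Rps16 (1.75), and none was lower (5.25%). In the transition of wild type none was at least 2-fold higher (19.1%) and 3 were lower (9.77%): Rpl10l (-3.52), Rpl39l (-1.71) and Rpl3l (-1.30). Among promoter genes described above, the deposited RNA fold in formative DKO was 0.09 for Rpl19, -0.06 for Rpl31, -0.25 for Rpl22 and -0.11 for Rps9. In naive DKO it was 0.90 for Rpl19, -0.28 for Rpl31, -0.06 for Rpl22 and -0.39 for Rps9. Rpl17 was past 2-fold in RNA in both states, as given above. Its promoter was 1 of the 23 of 27 with more H3K4me1 in both formative mutants than in both controls. Against the floxed line its DKO difference was -0.06 in naive and 0.46 in formative cells (counting errors 0.50 and 0.48). Against wild type it was 1.17 and 0.40, the former on 7.3 reads in naive wild type. A link between the mark and RNA was not tested. Ribosomal protein genes have many near-identical pseudogene copies, so RNA values of single genes are uncertain where counting could split reads among them.

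**Figure D5:**
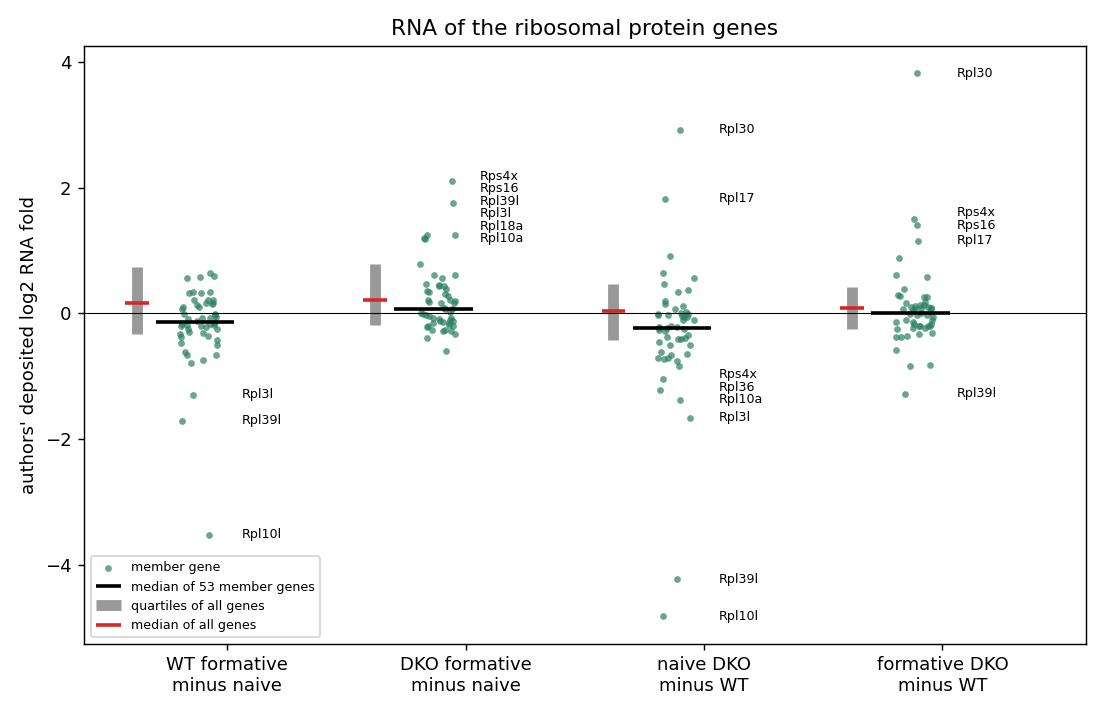
Authors' deposited log2 RNA folds (y axis) of the 53 member genes with a value in 4 comparisons (x axis), with names for those at 2-fold or more, the members' median in black, and the median (red) and quartiles (grey) of all genes. Most points lie within the quartiles of all genes, and the named low points are mainly the paralogs Rpl10l, Rpl39l and Rpl3l.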

How the data were processed

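H3K4me1 CUT&RUN libraries from 8 groups (4 genotypes, 2 states) were analysed; the IgG and MLL4 libraries were not analysed here. Per the submitters' processing notes the authors used Trim Galore, Bowtie2, SEACR, DiffBind and deepTools with mm10. The notes give neither versions nor the role of each tool. Independently cultured replicates were pooled by the authors into 1 column per group. The deposited log2 levels and log2 folds, and the p-values and FDR for wild type, are the authors' own, per the file headers. H3K27ac and RNA folds come from samples outside this series. A further 14 level columns were not used.

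From these, differences of log2 levels and normalized reads were computed (Python 3.11.15, pandas 2.3.3, NumPy 2.4.6, SciPy 1.17.1, matplotlib 3.10.9, pysam 0.24.0) and tested on simulated data. Spans and starts were taken from GENCODE vM21, promoter sequences from RefSeq. Comparisons of DKO with wild type were added to stand beside the deposited folds. Members and gene lists were chosen with earlier results of these data known. Named were, per comparison, the 3 promoter and 2 other regions at each end with 32 or more reads in the higher group, any member past 2-fold, and genes fixed by role. Alternatives varied scaling, added constant, promoter window, distance limit, name rule, read minimum, chromosomes and regions per gene.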

Additional observations from a re-analysis of the deposited data

How the results depend on the processing

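No paired analysis was possible because the table has 1 pooled column per group, and for the same reason no replicate could be left out. The median over promoter regions moved by less than its own interval in 96 of 100 alternatives, and that over other regions in 94 of 120. Centring each group on its all-region median raised the promoter medians to 0.81 in formative DKO, 0.88 in naive dCD and 1.03 in formative dCD, and a 500 bp promoter window lowered formative dCD to 0.29. For the other regions, centring gave 0.14 and 0.30 in naive and formative DKO, 0.15 and 0.36 in naive and formative dCD, and 0.10 and 0.13 in the naive and formative floxed line against wild type. Quantile scaling gave 0.12, 0.27, 0.12, 0.30, 0.06 and 0.11 in the same order, a 10 kb limit 0.05, 0.23, -0.02, 0.16, 0.09 and 0.08, and 1 region per gene 0.23, 0.45, 0.21, 0.45, 0.10 and 0.12. Of the reported medians -0.07, 0.09, -0.21, -0.04, -0.04 and -0.02 in that order, all but formative DKO thus changed sign under both scalings and with 1 region per gene, and under the 10 kb limit all but formative DKO and naive dCD did. The cause was not tested. With 1 region per gene the transition medians were -0.28 in the floxed line and 0.06 in DKO. In the authors' deposited table, 39 members passed an FDR under 0.05 and 24 an FDR under 0.01. Low read numbers at the promoters limit every value for a single gene.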

Other observations

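Promoters of other gene lists of the translation machinery were read against all promoter regions, whose medians were 0.38 in naive DKO, 0.40 in formative DKO, 0.41 in naive dCD and 0.47 in formative dCD. The 13 promoter regions of ribosome biogenesis genes, which make and process ribosomal RNA, were all above 0 in the 4 mutant comparisons, where 76.6% to 77.5% of all promoter regions were, with medians of 0.62 in naive DKO, 0.64 in formative DKO, 0.79 in naive dCD and 0.83 in formative dCD. The 27 promoter regions of mitochondrial ribosomal protein genes, which are encoded in the nucleus, had medians of 0.53, 0.73, 0.55 and 0.86 in the same order. The 9 of translation factor genes had 0.40, 0.54, 0.50 and 0.44, near the values of all promoter regions. The lists were chosen with earlier results of these data known, and no difference between them was tested.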
